A study of Homo sapiens with 12 samples.

Results

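The S100 calcium-binding proteins were followed in RNA-seq data from SKBR3 and MDA-MB-453, a pair of lines grown from HER2 breast cancers, as 10 named genes of the 62696 gene identifiers counted: S100A8, S100A9, S100A7, S100A4, S100A6, S100A10, S100A11, S100A14, S100A16 and S100P. The genes were chosen by name, with earlier results of these data known, and their identifiers were matched to symbols. S100A8, S100A9 and S100A7 were compared with the other 7, taken as the constitutively expressed members, a name that holds in SKBR3 but not for all 7 in MDA-MB-453, where S100A4 and S100P had at most 12 counts in any library and S100A6 at most 72. The study treated breast cancer cells with TWEAK, a cytokine of the TNF family that signals through the receptor Fn14, encoded by TNFRSF12A. Each line was sequenced as 3 untreated and 3 TWEAK-treated libraries, 12 in all. Treated cells received 10 ng/ml TWEAK for 48 h, given again at 24 h, after 8 h in Opti-MEM that followed 24 h in DMEM with serum. The labels repeat that text for the untreated libraries and do not say how those cells were handled. No genetic change was made in either line.

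S100 proteins are small proteins with a pair of EF-hand loops that bind calcium, and most work as dimers that change shape and grip a partner protein when calcium rises. S100A8 and S100A9 pair to form calprotectin, a major protein of neutrophils and monocytes that also appears in stressed or inflamed epithelium, where it sequesters zinc and manganese from microbes and acts on the receptors TLR4 and RAGE. S100A7, or psoriasin, is an antimicrobial protein of keratinocytes, whereas S100A4, S100A6, S100A10, S100A11, S100A14, S100A16 and S100P are made by many epithelial and tumour cells and act mainly on the cytoskeleton, membranes and annexins.

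Total counts lay between 24773003 and 35208304 per library. All 6 epithelial and HER2 markers (EPCAM, KRT8, KRT18, KRT19, ERBB2 and GRB7) were expressed in both lines, with ERBB2 at 7578 ± 284.7 CPM in untreated SKBR3 and 890.5 ± 16.1 CPM in untreated MDA-MB-453 (SD, n = 3). Of the 6, KRT19 was the 1 called higher with TWEAK in SKBR3 (log2 fold change 0.32, SE 0.09, edgeR adjusted p = 0.0608), beside 6.6% of all genes. Because libraries differ in depth, levels are given as CPM, counts scaled to library size with TMM factors over the 12 libraries. Different genes are ranked by level only as CPM per kb of transcript. Ratios of counts between genes and shares of counts are not corrected for length. A group with at most 3 counts in each of its libraries was taken to be at the limit of detection. These are bulk samples, so that more RNA per cell cannot be told apart from more cells that make it. Replicates were run on different days according to the study's methods. With 3 libraries against 3, an exact two-sided permutation test of 1 gene cannot give a p below 0.1, and differences were therefore tested with edgeR across all genes.

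Of the 10 genes, 9 lie on chromosome 1 (hg38) and S100P lies on chromosome 4, from 6693878 to 6697170. S100A9 (153357854 to 153361023, plus strand) and S100A8 (153390032 to 153391073, minus strand) lie close together on opposite strands, with S100A12 between them. S100A7 follows at 153457744 to 153460651, S100A6 at 153534599 to 153536244, S100A4 at 153543613 to 153550136, S100A16 at 153606886 to 153613145 and S100A14 at 153614255 to 153616986, whereas S100A10 (151982915 to 151993859) and S100A11 (152032506 to 152047907) lie apart from them. The 250 bases before the start site are shown for S100A8, S100A9 and S100A7, the genes set against the rest, and for S100A4 and S100A14, which hold a TATA and an NF-κB match among the rest. They run 5′ to 3′ on the strand of the gene, from RefSeq on GRCh38.p14, and capitals mark the matches to the motifs searched.
S100A8, chr1:153391074-153391323, minus strand: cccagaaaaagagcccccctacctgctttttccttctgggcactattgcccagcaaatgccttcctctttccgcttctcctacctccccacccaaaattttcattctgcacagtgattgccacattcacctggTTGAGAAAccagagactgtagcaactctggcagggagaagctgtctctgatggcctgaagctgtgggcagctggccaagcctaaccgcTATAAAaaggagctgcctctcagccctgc
S100A9, chr1:153357604-153357853, plus strand: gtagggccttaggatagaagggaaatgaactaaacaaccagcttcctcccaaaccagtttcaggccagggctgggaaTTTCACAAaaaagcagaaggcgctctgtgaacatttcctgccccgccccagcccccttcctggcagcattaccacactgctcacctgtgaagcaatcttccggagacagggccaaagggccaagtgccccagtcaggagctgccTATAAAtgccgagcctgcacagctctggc
S100A7, chr1:153460652-153460901, minus strand: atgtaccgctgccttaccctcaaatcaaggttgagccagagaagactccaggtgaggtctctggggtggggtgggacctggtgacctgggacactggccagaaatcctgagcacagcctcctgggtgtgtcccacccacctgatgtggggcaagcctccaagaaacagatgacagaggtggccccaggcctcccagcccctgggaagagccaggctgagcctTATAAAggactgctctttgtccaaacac
S100A4, chr1:153545807-153546056, minus strand: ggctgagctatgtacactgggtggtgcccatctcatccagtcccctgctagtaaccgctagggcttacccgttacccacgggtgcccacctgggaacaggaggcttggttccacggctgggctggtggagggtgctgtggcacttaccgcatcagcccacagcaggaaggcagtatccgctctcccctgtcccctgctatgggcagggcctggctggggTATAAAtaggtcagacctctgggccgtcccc
S100A14, chr1:153616326-153616575, minus strand: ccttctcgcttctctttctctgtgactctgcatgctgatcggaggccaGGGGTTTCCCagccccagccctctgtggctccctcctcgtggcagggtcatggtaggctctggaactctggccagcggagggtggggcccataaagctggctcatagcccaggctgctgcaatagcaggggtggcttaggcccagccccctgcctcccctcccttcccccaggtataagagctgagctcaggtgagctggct

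Motifs were searched on both strands in windows from 250 bases before to 50 after each start, and matches are letters in a window, not binding sites. All 10 genes had a window. The TATA box letters TATAAA stood in 5 of them (S100A8, S100A9, S100A7, S100A4 and S100P), against 11.5% of 35116 windows of all genes, and in all 5 they began between −31 and −28, counted from the start. S100A8, S100A9 and S100A7 thus share this element with S100A4 and S100P. The C/EBP letters TTNNGNAA stood in 5 (S100A8, S100A9, S100A6, S100A11 and S100P), against 36.8% of all windows. The AP-1 letters TGANTCA (7.71% of all windows) and the GAS letters TTCNNNGAA (7.66%) stood in 0 of the 10. The NF-κB motif (5.91% of all windows) matched 1, that of S100A14, from −202 to −193, where the letters read as a match on both strands. No motif searched was common to S100A8, S100A9 and S100A7 and lacking in the other 7.

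S100A8 and S100A9, the subunits of calprotectin, rose with TWEAK in both lines. S100A8 stood at 429, 381 and 379 counts in untreated SKBR3 and at 3446, 4467 and 3256 counts in TWEAK-treated SKBR3. In CPM this was 15.6 ± 0.179 against 151.5 ± 24.0 (SD, n = 3), a 9.67-fold rise with a 95% interval of 8.30 to 11.3 (log2 fold change 3.27, SE 0.11, edgeR adjusted p = 3.47e-08). Each treated library lay far above each untreated library, and the untreated libraries agreed closely. In MDA-MB-453, S100A8 had 39, 34 and 29 counts without TWEAK and 147, 117 and 167 with it. This was a rise from 1.25 ± 0.192 to 4.86 ± 0.697 CPM (SD, n = 3; 3.85-fold, interval 3.09 to 4.80, log2 fold change 1.95, SE 0.16, edgeR adjusted p = 9.76e-06). The groups did not overlap in this line either, but the treated level remained under the untreated level of SKBR3.

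S100A9 gave more counts than S100A8 in every library, also per base of transcript. It stood at 3249, 3154 and 3220 counts in untreated SKBR3 and at 10178, 12637 and 9963 counts after TWEAK. The rise from 126.7 ± 8.70 to 444.8 ± 53.7 CPM (SD, n = 3) was 3.50-fold, with an interval of 3.09 to 3.96 (log2 fold change 1.81, SE 0.09, edgeR adjusted p = 4.81e-07). In MDA-MB-453, 150, 121 and 145 counts became 284, 233 and 395. The level went from 5.10 ± 0.611 to 10.1 ± 1.25 CPM (SD, n = 3; 1.99-fold, interval 1.71 to 2.32, log2 fold change 0.99, SE 0.11, edgeR adjusted p = 1.42e-04). The groups were separate in both lines, as for its partner.

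S100A7, the keratinocyte antimicrobial protein, was near the limit of detection. Untreated SKBR3 held 2, 7 and 4 counts and treated SKBR3 16, 13 and 16, or 0.176 ± 0.109 and 0.612 ± 0.0794 CPM (SD, n = 3). The gene passed the filter on low counts only through the treated group. It was called higher (log2 fold change 1.80, SE 0.42, edgeR adjusted p = 0.0224), with a fold of 3.49 and a wide interval of 1.98 to 6.15. The call was lost without untreated replicate 1, the library with 2 counts (log2 fold change 1.40, edgeR adjusted p = 0.116). In MDA-MB-453 it had 0 counts in each library, which allows up to 3 counts per library, so the treated level in SKBR3 was at least 5.94-fold higher than in treated MDA-MB-453. The transcripts of S100A7 and S100A7A are 95.8% identical over 428 aligned bases, and reads could be split between the genes, although S100A7A had at most 1 count in any library.

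**Figure D1:**
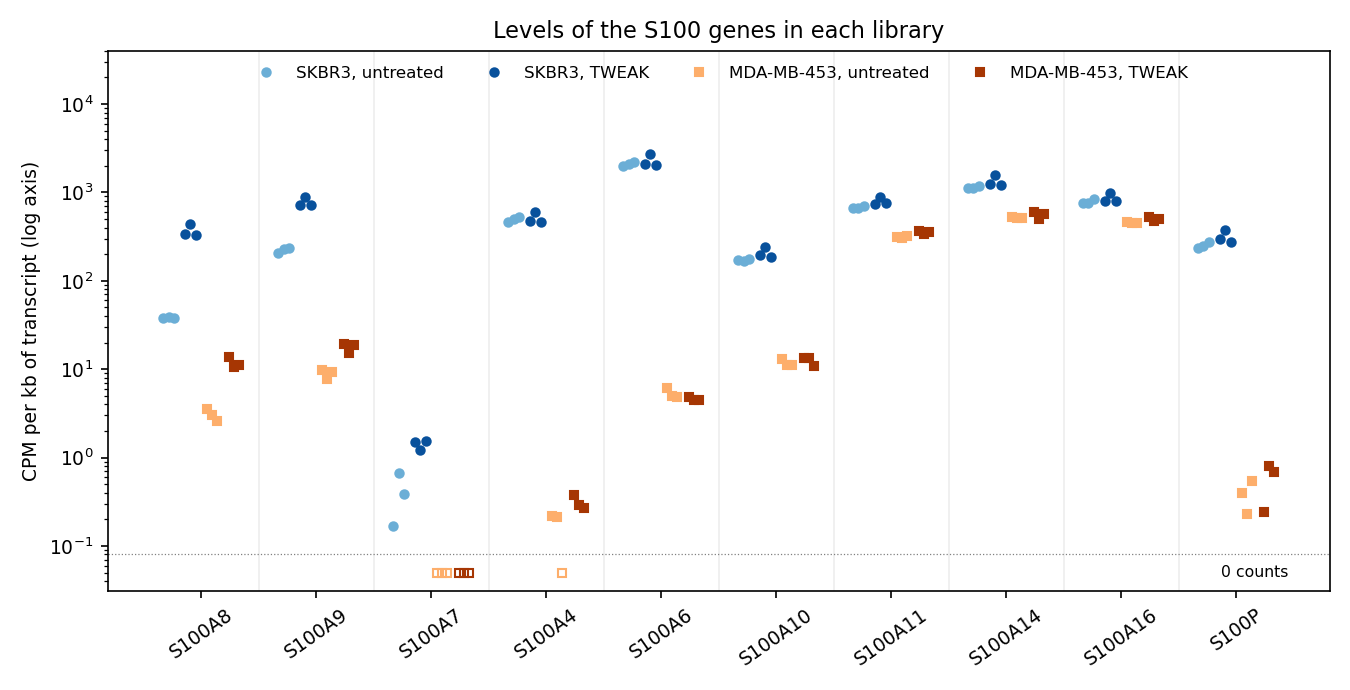
Level of each S100 gene in each of the 12 libraries, in CPM per kb of transcript on a log axis, with libraries at 0 counts drawn below the dotted line. Treated and untreated libraries are far apart for S100A8 and S100A9 in both lines and lie close together for the other 7 genes in SKBR3, whereas in MDA-MB-453 S100A4 and S100P scatter at a few counts.

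Of the other 7 members, only S100A11, an annexin A1 partner found in dividing and differentiating epithelium, was called higher in SKBR3. It stood at 10330, 8970 and 9501 counts without and 10342, 12418 and 10319 counts with TWEAK, or 378.2 ± 11.9 and 449.0 ± 42.8 CPM (SD, n = 3). The change was 1.18-fold with an interval of 1.07 to 1.31 (log2 fold change 0.24, SE 0.07, edgeR adjusted p = 0.0794). The call was lost without untreated replicate 1, 2 or 3 (edgeR adjusted p = 0.280, 0.297 and 0.132). It was also lost with the replicate number as a block (edgeR adjusted p = 0.149). In MDA-MB-453, 4776, 4689 and 4932 counts of S100A11 became 5384, 5113 and 7332, a rise from 176.5 ± 5.11 to 199.3 ± 8.22 CPM (SD, n = 3; 1.13-fold, interval 1.07 to 1.19, log2 fold change 0.18, SE 0.04, edgeR adjusted p = 0.0595). This call too was fragile, since it was lost without treated replicate 1 or 3 or any 1 of the untreated replicates (edgeR adjusted p between 0.122 and 0.435), and with all 12 libraries in 1 fit (edgeR adjusted p = 0.507).

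S100A10, the p11 subunit that binds annexin A2, and S100P, a protein often raised in carcinomas, had positive fold changes in SKBR3 that missed the threshold in edgeR and passed it in DESeq2 (adjusted p = 0.0780 and 0.0829). S100A10 was at 115.2 ± 2.45 and 140.3 ± 20.5 CPM (SD, n = 3; 1.21-fold, interval 1.07 to 1.38, edgeR adjusted p = 0.114). S100P was at 119.3 ± 8.59 and 148.3 ± 25.2 CPM (SD, n = 3; 1.24-fold, interval 1.07 to 1.44, edgeR adjusted p = 0.132). Neither pair of groups overlapped, but the lowest treated library of S100P, at 128.8 CPM, barely exceeded the highest untreated one, at 128.6 CPM. S100A14 and S100A16, neighbouring genes whose proteins are abundant in epithelium, had folds of 1.17 (interval 1.03 to 1.33, edgeR adjusted p = 0.208) and 1.10 (interval 0.975 to 1.24, edgeR adjusted p = 0.443). S100A6, or calcyclin, was at 905.5 ± 54.5 and 986.7 ± 154.5 CPM (SD, n = 3; 1.09-fold, interval 0.948 to 1.24, edgeR adjusted p = 0.571). S100A4, a binder of non-muscle myosin linked to cell motility, was at 255.6 ± 15.5 and 261.6 ± 37.2 CPM (SD, n = 3; 1.02-fold, interval 0.897 to 1.16, edgeR adjusted p = 0.904). For S100A4 and S100A6 the groups overlapped, and the intervals hold changes in either direction.

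A single library stood above the rest for most members. SKBR3 TWEAK replicate 2 was the highest of the 6 SKBR3 libraries for 9 of the 10 genes, S100A7 being the exception, and the members took 0.540% of its counts, against 0.440% and 0.432% in the other treated libraries and 0.378% to 0.409% in the untreated ones. Without it, the log2 fold change of S100A4 was −0.09 and that of S100A6 −0.02. S100A10 (log2 fold change 0.16, edgeR adjusted p = 0.0357) and S100P (0.17, edgeR adjusted p = 0.0490) were then called, whereas S100A8 and S100A9 kept their calls without any 1 library.

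In MDA-MB-453, 7 of the 10 genes passed the filter on low counts, and S100A7, S100A4 and S100P did not. S100A4 had 3, 3 and 0 counts without TWEAK and 5, 4 and 5 with it, and S100P had 5, 3 and 7 and then 3, 10 and 12. These counts are too few to read a change from. S100A16 (533.8 ± 11.2 and 583.3 ± 31.5 CPM, edgeR adjusted p = 0.263), S100A14 (549.5 ± 9.24 and 583.1 ± 47.3 CPM, edgeR adjusted p = 0.573), S100A10 (7.88 ± 0.774 and 8.43 ± 0.922 CPM, edgeR adjusted p = 0.800) and S100A6 (2.31 ± 0.321 and 2.0 ± 0.103 CPM, edgeR adjusted p = 0.657) were not called (SD, n = 3). With the replicate number as a block, S100A16 was called higher (log2 fold change 0.13, edgeR adjusted p = 0.0134). S100A6 was the single member with a negative estimate (log2 fold change −0.21, fold interval 0.700 to 1.07).

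Counted together, 4 of the 10 members were called higher and 0 lower in SKBR3, where edgeR called 6.6% of 15661 genes higher and 3.82% lower. Groups did not overlap for 7 of the 10, against 26.5% of all genes tested. In MDA-MB-453, 3 of the 7 tested were called higher and 0 lower, against 1.29% and 0.208% of 14929 genes, and 4 did not overlap, against 15.1%. These counts depend on single libraries and on the settings. Without TWEAK replicate 2, 2101 genes and 5 members were called in MDA-MB-453 in place of 223 and 3. Without untreated replicate 2 or 3, they were 131 genes and 2 members. In SKBR3 the count of members was 2 without untreated replicate 1 and 7 without TWEAK replicate 3. Genes called there numbered 926 to 2780 with 1 library left out, in place of 1633. Other settings gave 144 (all 12 libraries in 1 fit) to 894 genes (replicate number as a block) in MDA-MB-453. In SKBR3 they gave up to 3421 genes (GC content and length correction), and 7 members with all 12 libraries or no filter. In both lines 0 members had a negative estimate with an unadjusted edgeR p under 0.05, and DESeq2 also called 0 lower. S100A7 entered the test in SKBR3 only through the group where it is high, so that it had to differ, and without it 3 of 9 members were called higher and 6 of 9 did not overlap. The median log2 fold change of S100A8 and S100A9 in SKBR3 was 2.54 and that of the 7 members beside the S100A8, S100A9 and S100A7 group was 0.23, beside −0.0074 for all genes. The value of 0.23 leans on SKBR3 TWEAK replicate 2. Without that library the 7 estimates ran from −0.09 (S100A4) to 0.17 (S100P), with S100A14 at 0.10. With the GC content and length correction, S100A4 was at −0.06, S100A6 at 0.01, S100A16 at 0.04, S100A14 at 0.14, S100A11 at 0.15 and S100A10 at 0.22. In MDA-MB-453, S100A8 and S100A9 had a median of 1.47 and the 5 others tested one of 0.09, beside 0.0016 for all genes. With S100A7 set aside, the calls in both lines were those of S100A8, S100A9 and S100A11. The members were chosen with earlier results of these data known, so these counts and medians describe them and are not a test.

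**Figure D2:**
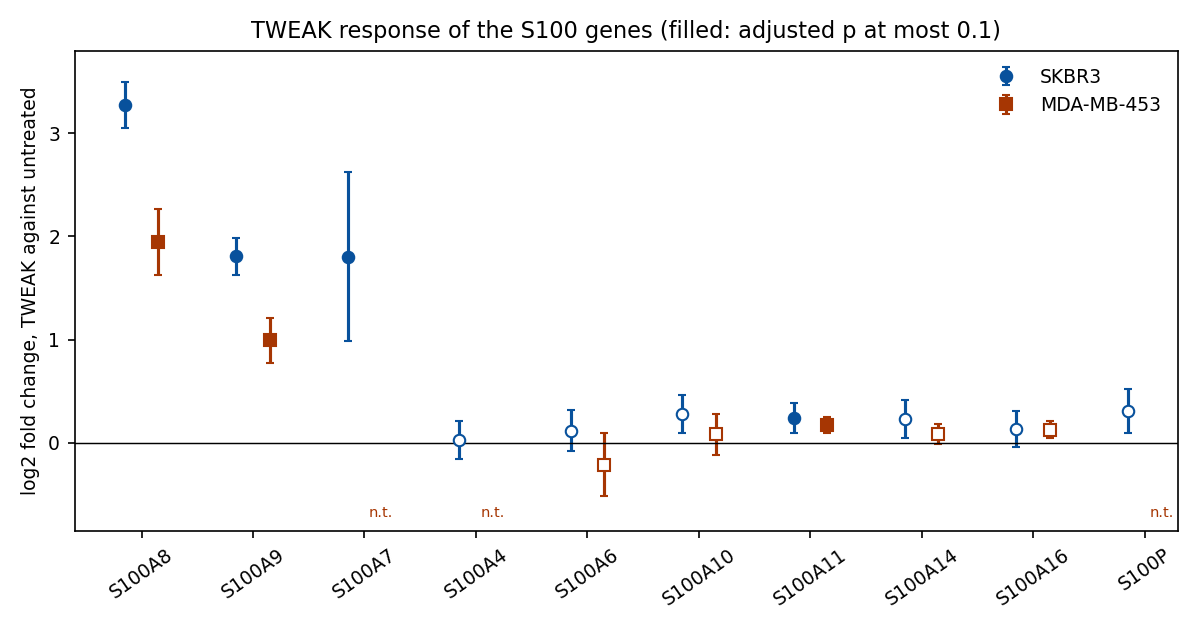
Log2 fold change with TWEAK of each S100 gene in SKBR3 (circles) and MDA-MB-453 (squares), with 95% intervals, filled where the edgeR adjusted p was at most 0.1 and marked n.t. where the gene was not tested. S100A8, S100A9 and, in SKBR3, S100A7 stand at 0.99 to 3.27, and the other genes lie between −0.21 and 0.31.

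Whether the lines responded differently was asked of an interaction term fitted over the 12 libraries, which called 3.37% of 17201 genes in either direction. S100A8 rose more in SKBR3 than in MDA-MB-453, by 1.33 on the log2 scale (SE 0.24, edgeR adjusted p = 0.00438), or 2.52-fold with an interval of 1.81 to 3.51. S100A9 did likewise, by 0.82 (SE 0.16, edgeR adjusted p = 0.00623), or 1.76-fold with an interval of 1.43 to 2.18. Both calprotectin genes therefore had a larger response in the line with the higher starting level. Of the 8 members for which the interaction is given, no other was called. For S100A11 the ratio of the responses was 1.05 (interval 0.937 to 1.18), for S100A16 1.01 (0.879 to 1.16), for S100A14 1.11 (0.949 to 1.29), for S100A10 1.15 (0.936 to 1.40) and for S100A6 1.26 (0.946 to 1.68). The interval for S100P, 0.362 to 1.89, is wide because MDA-MB-453 held too few counts to read its response there. For the same reason the interaction is not given for S100A7 and S100A4.

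The lines differed far more in their untreated levels. All 10 members were higher in untreated SKBR3 than in untreated MDA-MB-453, where edgeR called 43.5% of genes higher and 40.7% lower, so a call in this comparison is common. S100A4 and S100P passed the filter on low counts only through SKBR3, so that they had to differ. S100A7 passed it only through treated SKBR3, a group that this comparison does not use. With at least 10 counts required in every library 7 members were tested and all 7 were called. The sizes were uneven. S100A6 was 392-fold higher (interval 329 to 467), and S100P 632-fold higher (interval 478 to 837). S100A4, at 3, 3 and 0 counts in MDA-MB-453, was 2316-fold higher with that line set at 3 counts per library. These 3 genes are abundant in SKBR3, and none had more than 72 counts in any MDA-MB-453 library. S100A9 was 24.8-fold (21.3 to 28.9), S100A10 14.6-fold (12.7 to 16.9) and S100A8 12.4-fold (9.96 to 15.5) higher, whereas S100A14 (2.18-fold), S100A11 (2.14-fold) and S100A16 (1.72-fold) were within a few fold of each other in the lines. S100A7 had 2, 7 and 4 counts against 0 and was called, but no fold is given. Line and any batch that goes with it cannot be told apart in this comparison.

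Per kb of the canonical transcript, the order in untreated SKBR3 ran from S100A6 (2086 CPM per kb) through S100A14 (1136), S100A16 (785.0), S100A11 (671.8), S100A4 (498.2), S100P (253.3), S100A9 (221.2) and S100A10 (171.7) to S100A8 (38.3) and S100A7 (0.409), and no neighbours in it overlapped. With TWEAK, S100A9 (776.2 CPM per kb) reached the range of S100A11 (797.5), which itself overlapped S100A16 (865.8), and S100A8 (371.3) reached that of S100P (315.0). S100A8 thus moved from under all of the 7 other genes into their range, where S100A9 already stood without TWEAK, above S100A10. In untreated MDA-MB-453 the order was S100A14 (521.3 CPM per kb), S100A16 (455.4), S100A11 (313.5), then S100A10 (11.7), S100A9 (8.91), S100A6 (5.32), S100A8 (3.07), S100P (0.391), S100A4 (0.143) and S100A7 (0). Of these neighbours only S100A4 and S100A7 overlapped. With TWEAK, S100A9 (17.7 CPM per kb) passed S100A10 (12.6), and S100A8 (11.9) came to overlap S100A10. The order depends on the length used, and dividing by all exonic bases of a gene was added after seeing the data. S100A14 (937.6 CPM per kb) and S100A6 (932.6) then overlapped in untreated SKBR3, as did S100A11 (582.7) and S100A16 (540.9), and S100A4 (270.2) and S100P (253.3). In treated SKBR3, S100A9 (776.2 CPM per kb) then stood above S100A11 (691.8), which it overlapped, and above S100A16 (596.5). Treated S100A8 (170.0 CPM per kb) then overlapped S100A10 (138.6) and not S100P (315.0) in SKBR3, and in treated MDA-MB-453 it stayed under S100A10. In untreated MDA-MB-453, S100A9 (8.91 CPM per kb) then already stood above S100A10 (7.78) and overlapped it, so by this length S100A9 did not pass S100A10 with TWEAK.

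S100A8 rose more than S100A9, and their ratio fell accordingly. S100A9 gave 7.57, 8.28 and 8.50 counts per S100A8 count in untreated SKBR3 and 2.95, 2.83 and 3.06 after TWEAK. In MDA-MB-453 the ratios were 3.85, 3.56 and 5.0 without and 1.93, 1.99 and 2.37 with TWEAK. The groups did not overlap in either line, and the ratio is given as a description without a test. As a share of the counts of all 10 members, S100A8 and S100A9 together went from between 3.40% and 3.70% to between 11.8% and 12.1% in SKBR3, and from between 0.451% and 0.540% to between 1.01% and 1.13% in MDA-MB-453.

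**Figure D3:**
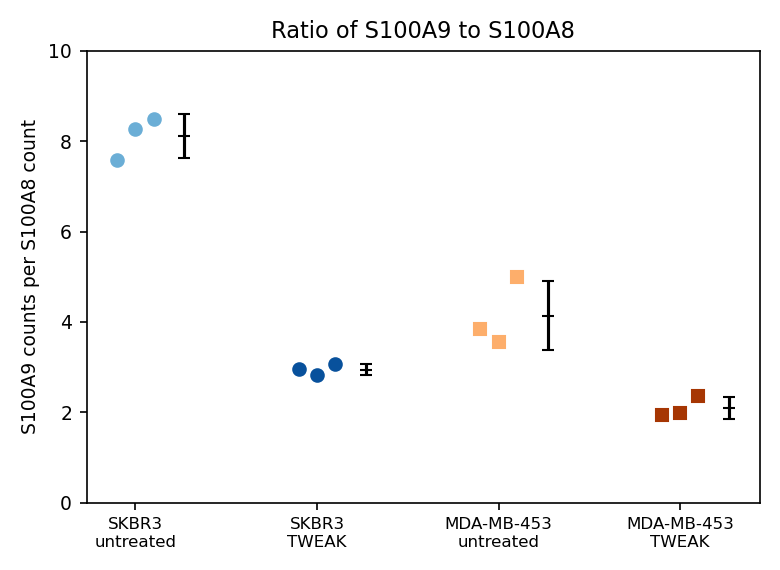
Counts of S100A9 per count of S100A8 in each library, with the mean and SD of each group of 3 beside it. The ratio is lower in each treated group, at 2.95 ± 0.116 against 8.12 ± 0.482 in SKBR3 and 2.10 ± 0.235 against 4.14 ± 0.763 in MDA-MB-453.

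Among 10 further S100 genes, 5 were tested in SKBR3 and 1 was called higher, S100A3, a protein of the hair cuticle, beside 6.6% of all genes. It went from 20, 19 and 29 to 42, 52 and 35 counts (log2 fold change 0.96, SE 0.25, edgeR adjusted p = 0.0394). S100A1, S100A2, S100A5 and S100A13 were not called. In MDA-MB-453, 3 were tested and 0 were called by edgeR or DESeq2, with 0 at an unadjusted edgeR p under 0.05. S100A12, the third calgranulin gene beside S100A8 and S100A9, did not pass the filter and is named after its values were seen. It had 1, 0 and 0 counts in untreated SKBR3 and 10, 5 and 9 with TWEAK, 2.76-fold higher with the untreated level set at 3 counts per library.

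Along chromosome 1, the genes around the cluster were called about as often as genes in general. Of 36 protein-coding genes without an S100 name within 500 kb of the stretch from S100A9 to S100A16, 15 were tested in SKBR3 and 1 was called higher, near the 6.6% of all genes, and 14 were tested in MDA-MB-453 with 0 called by edgeR or DESeq2 and 1 at an unadjusted edgeR p under 0.05. The gene called was IVL, which encodes involucrin of the keratinocyte envelope and went from 198, 183 and 176 to 562, 627 and 600 counts (log2 fold change 1.73, SE 0.08, edgeR adjusted p = 4.15e-07). Of 19 genes of the epidermal differentiation complex, which flanks these S100 genes, 3 were tested in SKBR3 and 2 were called higher, beside 6.6% of all genes. These were IVL and TCHHL1 (log2 fold change 0.96, SE 0.24, edgeR adjusted p = 0.0345). The complex was otherwise nearly silent, with 15 of the 19 at 3 counts or fewer in each SKBR3 library and 0 tested in MDA-MB-453.

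**Figure D4:**
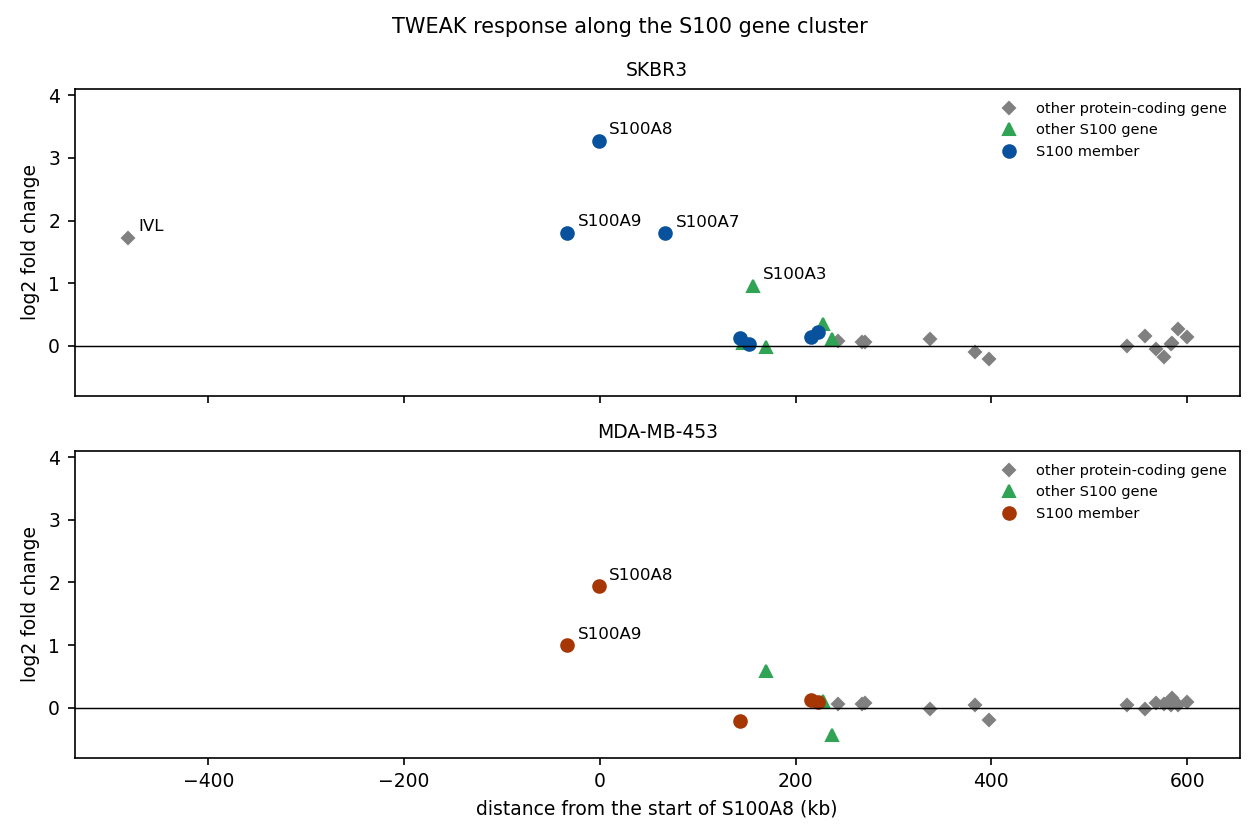
Log2 fold change with TWEAK of the genes tested around S100A8, by distance in kb from its start, for SKBR3 (top) and MDA-MB-453 (bottom). S100A8, S100A9 and, in SKBR3, S100A7, S100A3 and IVL stand at 0.96 or above, and the other genes lie nearer 0, with S100A10, S100A11 and S100P outside the stretch drawn.

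The partners and receptors of S100 proteins were read from a list of 17 genes. In SKBR3, 16 were tested, 5 were called higher and 1 lower, beside 6.6% and 3.82% of all genes. The 5 included 3 of the 4 annexins listed, membrane proteins that S100 dimers bridge, and ANXA11 was not called (log2 fold change 0.06, SE 0.06, edgeR adjusted p = 0.687). ANXA1, a partner of S100A11, had a log2 fold change of 1.03 (SE 0.13, edgeR adjusted p = 3.31e-04), ANXA2, the partner of S100A10, one of 0.60 (SE 0.07, edgeR adjusted p = 2.34e-04) and ANXA6 one of 0.54 (SE 0.07, edgeR adjusted p = 4.94e-04). MCAM, an adhesion receptor for S100A8 and S100A9 (0.85, SE 0.10, edgeR adjusted p = 3.63e-04), and MYH9, the myosin bound by S100A4 (0.21, SE 0.05, edgeR adjusted p = 0.0405), were also higher, and ALCAM, a related adhesion receptor, was lower (log2 fold change −0.42, SE 0.09, edgeR adjusted p = 0.0135). In MDA-MB-453, 13 were tested and 0 were called by edgeR or DESeq2, while 1 with a positive and 2 with a negative estimate had an unadjusted edgeR p under 0.05. The classical receptors were low in both lines: TLR4 had at most 2 counts in any library, and AGER, which encodes RAGE, had 26 to 96 counts and was not called. BSG and NPTN of the same list were expressed in both lines and not called. BSG was at 364.3 CPM in untreated SKBR3 and 473.4 CPM in untreated MDA-MB-453, and NPTN at 85.1 and 43.6 CPM.

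Since S100A8 and S100A9 are abundant in myeloid cells, and S100A7 in squamous epithelium, markers of both were read. The summed level of 10 myeloid markers rose with TWEAK from between 2.88 and 3.51 to between 24.2 and 28.0 CPM in SKBR3 and from between 1.53 and 2.16 to between 2.73 and 3.66 CPM in MDA-MB-453. In SKBR3, 3 of the 10 were tested and 1 was called higher, beside 6.6% of all genes. This was ITGAM, an integrin chain of myeloid cells, which went from 20, 14 and 26 to 588, 553 and 605 counts (log2 fold change 4.90, SE 0.15, edgeR adjusted p = 2.22e-08). In MDA-MB-453, ITGAM was the 1 called higher of 2 tested, beside 1.29% of all genes. It went from 3, 0 and 3 to 35, 41 and 43 counts, 12.2-fold higher with the untreated level set at 3 counts per library. It passed the filter there only through the treated group. ITGAM carried the change in the sum. The other 9 markers together stood at 2.16 to 2.43 CPM without and 2.01 to 2.99 CPM with TWEAK in SKBR3, and at 1.53 to 2.04 and 1.56 to 2.13 CPM in MDA-MB-453. PTPRC, or CD45, had at most 5 counts in any library, LYZ at most 7, FCGR3B at most 5, TYROBP at most 2 and MPO at most 1. CSF3R was higher, at 21 to 40 counts, and was tested but not called in either line, CD14 had 8 to 15 counts in SKBR3 and at most 3 in MDA-MB-453, and CYBB had at most 11. FCER1G had 6, 3 and 2 counts without and 7, 10 and 12 with TWEAK in MDA-MB-453, too few to pass the filter. Of 8 squamous markers, 4 were tested in SKBR3 and 4 were called higher, beside 6.6% of all genes: KRT5 (log2 fold change 3.47), KRT16 (1.35), TP63 (1.96) and IVL (1.73). KRT5 (10, 5 and 8 to 99, 90 and 61 counts) and TP63 (5, 3 and 5 to 16, 12 and 22 counts) passed the filter only through the treated group, so the count is partly set by the filter and is 2 of 2 without them, KRT16 and IVL. The summed level of the 8 rose from between 8.63 and 8.75 to between 29.9 and 31.9 CPM, most of it from IVL, which went from 7.32 ± 0.235 to 24.3 ± 1.37 CPM (SD, n = 3), while KRT6A stayed at 0 counts and DSG3 at 2 or fewer. In MDA-MB-453, 1 squamous marker was tested, TP63, which edgeR and DESeq2 did not call (log2 fold change 0.32, SE 0.12, edgeR adjusted p = 0.343). Whether these markers and the S100 genes moved in the same cells was not tested.

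The genes whose pattern was most like that of S100A8 were sought by Pearson correlation of log2 CPM, centred within each line, over the 12 libraries and 13488 other genes. The 5 nearest were SOX4 (r = 0.992), S100A9 (0.991), CKAP4 (0.991), COL16A1 (0.990) and TYMP (0.989). The libraries share the contrast of treated and untreated cells, so any gene that rises with TWEAK in both lines correlates. All 5 were called higher in both lines, with log2 fold changes from 0.50 to 2.33 in SKBR3 and from 0.27 to 1.61 in MDA-MB-453.

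NFKB2 and RELB, NF-κB genes known to respond to TWEAK, were higher with TWEAK in both lines. NFKB2 rose by 1.79 (SE 0.07, edgeR adjusted p = 9.34e-08) and RELB by 1.44 (SE 0.12, edgeR adjusted p = 1.73e-05) on the log2 scale in SKBR3, and by 1.67 (SE 0.05, edgeR adjusted p = 3.01e-10) and 2.75 (SE 0.13, edgeR adjusted p = 2.95e-08) in MDA-MB-453. RELB had the larger estimate in MDA-MB-453, where its untreated libraries held 35, 33 and 35 counts. NFKB2 and TNFRSF12A had the larger estimate in SKBR3, as did S100A8 and S100A9. TNFRSF12A, the receptor, was called higher in SKBR3 (0.36, SE 0.09, edgeR adjusted p = 0.0322) and not in MDA-MB-453 (0.17, SE 0.04, edgeR adjusted p = 0.129), and a difference between the lines was not read for these genes.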

How the data were processed

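Poly-A RNA-seq counts of SKBR3 and MDA-MB-453, with 3 untreated and 3 TWEAK-treated libraries each, were used as the authors deposited them. Per the labels, the authors used Trimmomatic, STAR and featureCounts on hg38. Versions, annotation release, strand setting and the treatment of reads that map to several places are not given in the sources used here. The labels name a DNA library kit and the methods a directional RNA kit, so reads from overlapping antisense genes may not be separated. Among the members this touches 3.81% of the exonic bases of S100A6.

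The deposited counts are whole numbers per gene and carry no normalisation. Of 62696 identifiers, 62672 matched GENCODE release 44 by their unversioned form and 24 did not. The 6 libraries of each line were fitted by themselves, using edgeR 4.0.16 and R 4.3.3 (filterByExpr, TMM, quasi-likelihood test, two-sided, Benjamini-Hochberg adjustment, adjusted p of at most 0.1). The difference between lines and the untreated comparison used all 12 libraries in 1 fit. Fitted changes use a prior count of 0.125. The 95% intervals are the log2 estimate plus and minus the normal quantile times the SE, which was taken from the F statistic. They are therefore somewhat narrower than the F test implies. For likeness to S100A8, 0.5 was added to CPM before taking log2. The code was tested on simulated data.

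The members, gene lists, markers and motifs were chosen with earlier results of these data known, and no list was tested as a set. Named genes are the members, genes of the lists whether called or not, markers of other cell types and the 5 genes most like S100A8. Alternatives were DESeq2 1.42.0, its size factors in edgeR, no filter, at least 10 counts in every library, a threshold of 0.05, all 12 libraries, the replicate number as a block and each library left out. A correction for GC content and length (splines with 5 degrees of freedom) and levels per kb of all exonic bases were added after seeing the data. Limits of 3 counts cover counting error only, and not in full where up to 3 counts were seen. Folds against these limits use the mean of the higher group without its error. The counts carry no molecular identifiers.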

Additional observations from a re-analysis of the deposited data

Results flagged for a closer look

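The response to TWEAK differed between SKBR3 and MDA-MB-453 for S100A8 and S100A9, by the interaction test over all 12 libraries. The log2 fold change of S100A8 was 1.33 larger in SKBR3 (edgeR adjusted p = 0.00438), and between 1.18 and 1.44 larger over all 18 alternatives, with adjusted p of at most 0.0374. The log2 fold change of S100A9 was 0.82 larger (edgeR adjusted p = 0.00623), and between 0.70 and 0.92 larger over the 18 alternatives, with adjusted p of at most 0.0341. Each of the 3 treated libraries lay above each of the 3 untreated libraries in each line for both genes.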

How the results depend on the processing

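S100A8 and S100A9 kept their direction and calls in each line under all 13 alternatives, with log2 fold changes of 3.14 to 3.35 for S100A8 and 1.71 to 1.86 for S100A9 in SKBR3, and of 1.83 to 2.06 for S100A8 and 0.90 to 1.08 for S100A9 in MDA-MB-453. The counts of members called depend on the setting. In SKBR3, 1633 genes and 4 members higher became 2575 genes and 7 members with all 12 libraries in 1 fit, 7 members with no filter on low counts and 3421 genes with the trend of GC content and length removed. Leaving out 1 library gave 926 (without untreated replicate 2) to 2780 genes (without TWEAK replicate 2) and 2 (without untreated replicate 1) to 7 members (without TWEAK replicate 3). In MDA-MB-453, 223 genes became 144 with all 12 libraries, 445 with the GC and length correction and 480 with no filter, and leaving out 1 library gave 131 (without untreated replicate 2 or 3) to 2101 genes and 2 to 5 members in place of 3, with both upper ends without TWEAK replicate 2.

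The replicate block gave 894 genes in MDA-MB-453. The numbers were not taken to pair the libraries, since same-numbered deviations had correlations of 0.11, −0.10 and −0.16 in SKBR3, whereas MDA-MB-453 gave 0.09, 0.08 and 0.03, not all above 0.1. In MDA-MB-453 every library correlated best with its own number, a hint from the data, since the labels tie no number to a day, and in SKBR3 this was not so. With the replicate block, S100A11 lost its call in SKBR3 (0.24, edgeR adjusted p = 0.149) and S100A16 gained one in MDA-MB-453 (0.13, edgeR adjusted p = 0.0134).

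S100A11 was called in 9 of 13 alternatives in SKBR3 and 7 of 13 in MDA-MB-453, where it was lost with all 12 libraries (edgeR adjusted p = 0.507). S100A10 and S100P were called in SKBR3 in 6 of 13 each, DESeq2 included (adjusted p = 0.0780 and 0.0829), and S100A14 in 3. Estimates near 0 changed sign. S100A4 in SKBR3 was −0.061 with the GC and length correction and −0.092 to 0.10 with 1 library left out, and S100A6 −0.016 to 0.19. The difference between lines of S100A16 was −0.033 with the GC and length correction, −0.0021 with no filter and −0.11 to 0.068 with 1 library left out, and that of S100A11 −0.024 to 0.12. The cause was not tested. In MDA-MB-453, changes in S100A7, S100A4 and S100P were not detectable at these counts.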
